A study of Rattus norvegicus with 12 samples.

Results

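Rat optic nerve head astrocytes kept with epidermal growth factor (EGF) for 12 h were compared with control cultures of the same time point, on 6 of the 12 arrays of the study. The arrays were chosen by their titles, as EGF at 12 h and the control for EGF at 12 h, replicates 1 to 3 of each, and every probe set except the array's own control probe sets was taken in. The other 6 arrays hold EGF at 4 h and its own controls. The cells were primary cultures, and total RNA was labelled with biotin, per the labels, and hybridised to 1-colour Affymetrix arrays. The treated cultures differed from the controls only in EGF as far as the labels say. For the EGF dose and for the strain and age of the rats, values are not given in the sources used here. Every sample's description field says control, so group and replicate number rest on the titles. Nothing states that the replicates were separate cultures, so each p reflects how far these arrays differ among themselves, and that spread may be technical.

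EGF is the ligand of the EGF receptor, a tyrosine kinase that signals through RAS and the ERK kinases and through PI3 kinase. ERK activity induces early transcription factors within the hour, then inhibitors of its own pathway, and later programmes of growth, metabolism, movement and matrix remodelling. Astrocytes of the optic nerve head ensheath the axons of retinal ganglion cells where they leave the eye, couple to each other through connexins, supply and clear metabolites, and turn reactive when the nerve is injured, as in glaucoma.

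By 12 h the EGF cultures carried much more transcript of the EGF receptor ligand Areg, of the aldo-keto reductases Akr1c3 and Akr1b8, of versican and of the growth cone gene Gap43, and much less of Aldoc, Cldn11, Sult1a1 and the connexins Gjb2 and Gjb6. Of the sterol synthesis genes 15 of 20 rose, of the amino acid supply genes 20 of 33 and of the proteasome subunits 23 of 34, whereas 25 of 40 mitotic genes and 15 of 34 axon guidance genes fell. With each 12 h array left out in turn, these counts ran, in that order, from 15 to 16, 18 to 22, 18 to 24, 17 to 25 and 12 to 17. Of 10261 genes tested, 1698 (16.5%) rose and 2485 (24.2%) fell at an adjusted p under 0.05. Without EGF replicate 3, whose control probe sets differ from those of the other 12 h arrays, 1859 (18.1%) rose and 2408 (23.5%) fell.

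Signals are the authors' MAS5 intensities, given for replicates 1, 2 and 3 in that order. Log2 fold changes are on the scale of log2(signal + 24.4), each with its standard error (SE), and adjusted p values are from limma over all 18625 probe sets tested. With 3 arrays a group the precision is limited, and the median SE was 0.23. A gene is shown by its brightest probe set. Of the 65 genes chosen by the naming rule that had several, 29 had another probe set whose log2 fold change was more than 1.5 times smaller or of the other sign.

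The cell type label was checked against markers. Vimentin (Vim), the connexin Gja1, glutamine synthetase (Glul) and Aldoc were bright in the 12 h controls. Vim ran from 66141 to 76714, Gja1 from 67523 to 72577, Glul from 6551 to 7606 and Aldoc from 2234 to 2921. In the 4 h controls Aldoc read only 260.0, 194.5 and 26.9. S100b, at 200.4 to 371.8, and Slc1a3, at 249.5 to 336.3, were low in the 12 h controls. The defining astrocyte markers Gfap, Aqp4, Slc1a2, Aldh1l1 and Pax2 were too dim to test, with Gfap at 93.7 to 347.4 in the 12 h controls and 36.2 to 249.1 with EGF. Genes of fibroblasts and meningeal cells were bright, such as Col1a2 at 55732 to 74266 and Dcn at 19745 to 29639 in the controls. Summed over the 14 such markers, the signal ran from 326867 to 374063 in the controls and from 200206 to 298526 with EGF. Fewer cells of a type and less RNA per cell cannot be told apart in these cultures. The oligodendrocyte markers Olig1, Olig2, Mog and Sox10 were at most 180.2 on every 12 h array, while other members of that list were bright in the controls, with Cldn11 at 44080.1 to 47854, Cnp at 6649.8 to 7509.8, Pdgfra at 3714 to 4384 and Mbp at 1324 to 1948. Of the 13 microglia and macrophage markers, Itgam, Trem2 and Ptprc were under 96.8, the 25th percentile of all signals, on every 12 h array. Csf1r, Aif1, Fcer1g and Cd68 were bright enough to test.

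EGF replicate 3 stood apart from the other 12 h arrays in its control probe sets before any test. The 3' to 5' signal ratio, which grows as labelled RNA stops short of the 5' end, was 1.24 for actin on that array and 11.1 to 21.7 on the other 12 h arrays. For Gapdh it was 1.19 against 6.69 to 8.44, for the added Thr transcript 3.87 against 22.9 to 34.9, and for hexokinase 2.92 against 3.53 to 29.8. On the log2 scale, 964 genes (9.39%) lay more than 2-fold from the mean of EGF replicates 1 and 2 on EGF replicate 3, whereas 393 (3.83%) differed that far between replicates 1 and 2. The ratios of that array were nearer to those of the 4 h arrays, on which actin ran from 1.2 to 1.61.

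**Figure D1:**
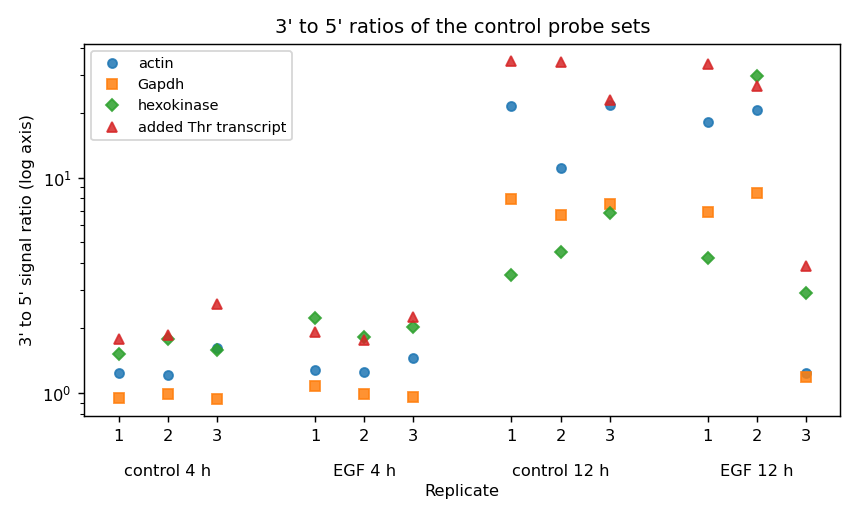
Ratio of 3' to 5' signal (log axis) of the control probe sets for actin, Gapdh, hexokinase and the added Thr transcript on each of the 12 arrays, by group and replicate. On EGF replicate 3 at 12 h the actin ratio was 1.24, against 11.1 to 21.7 on the other 12 h arrays.

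The response was broad and its direction depended little on EGF replicate 3. Of the genes called with all arrays, 1524 rose and 2149 fell without that array too. A further 174 rises and 336 falls were lost without it, 335 rises and 259 falls were gained, and no gene was called in opposite directions. At least 2-fold changes were called for 733 rises and 1084 falls, and at least 8-fold for 79 rises and 67 falls. The 3 EGF arrays lay above all 3 controls in 2142 genes (20.9%) and below them in 3259 (31.8%). Over probe sets, 42.3% of the calls were rises, and 52.6% when each array was centred on its median. The median log2 fold change of all genes was -0.09, and 0.01 after that centring.

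**Figure D2:**
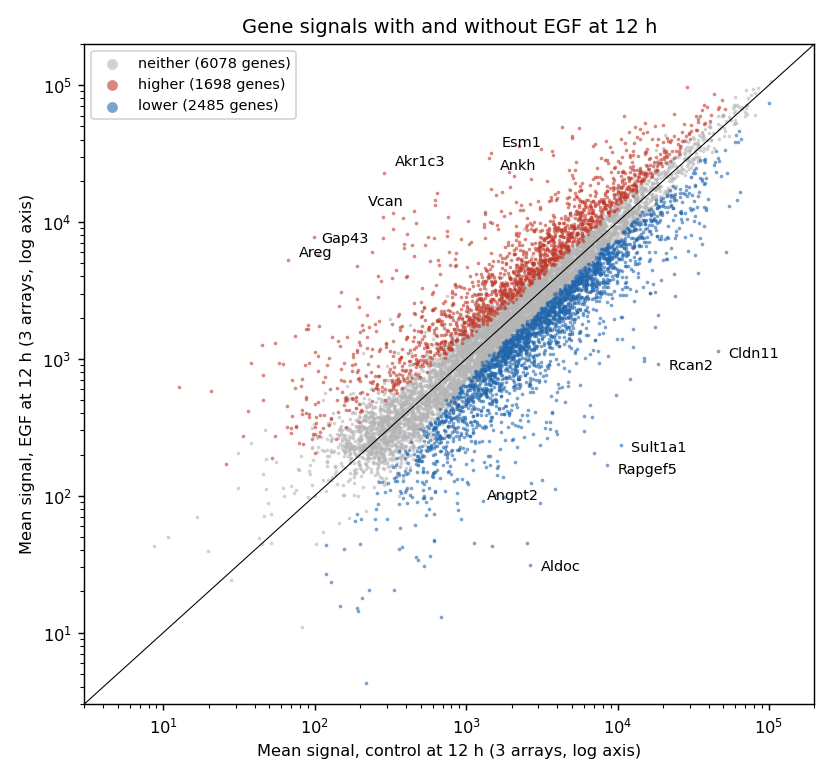
Mean signal of each of the 10261 genes over the 3 EGF arrays of 12 h (vertical, log axis) against its mean over the 3 controls (horizontal, log axis), with 1698 rises in red and 2485 falls in blue at an adjusted p under 0.05. Points on the diagonal have equal means, and labelled genes are among the 15 largest rises and falls.

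The largest rises joined a ligand, enzymes, adhesion and matrix genes, and several of these transcripts were dim in the controls. Among the 15 largest rises and 15 largest falls, the highest adjusted p was 0.000268 with all arrays and 0.000613 without EGF replicate 3. The choice required that EGF and control arrays not overlap, so separation in these genes is no finding. Arhgap22 and Akr1c3 had the largest log2 fold changes, and with an offset of 96.8 that of Arhgap22 was 5.38 and that of Akr1c3 5.90. Arhgap22, which encodes a GTPase-activating protein for Rac, read 127.6, 155.9 and 13.2 on the control arrays and 8658, 9315 and 5378 on the EGF arrays. Its lowest EGF array was replicate 3 and its lowest control array replicate 3 too, and the log2 fold change was 6.23 ± 0.65 (adjusted p = 7.85e-06). Akr1c3, whose product reduces steroids and prostaglandins, read 346.3, 240.5 and 272.1 on the control arrays and 22866, 26241 and 19420.3 on the EGF arrays. Its relative Akr1b8 read 288.2, 337.8 and 220.1 on the control arrays and 10950.3, 12315 and 9306 on the EGF arrays. In both, the EGF arrays lay close to each other and far above the controls, with log2 fold changes of 6.21 ± 0.45 (adjusted p = 2.73e-07) and 5.16 ± 0.17 (adjusted p = 3.67e-10).

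Areg, the gene of the EGF receptor ligand amphiregulin, read 45.7, 72.6 and 82.6 on the control arrays and 6344, 5737 and 3716 on the EGF arrays. Its controls were near background, their mean being under 96.8, and EGF replicate 3 was the lowest of the treated arrays. Areg rose by 5.84 ± 0.23 (adjusted p = 1.54e-09). Cyp3a9, a cytochrome P450 of drug and steroid oxidation, read 112.2, 87.8 and 116.9 on the control arrays and 6129.9, 5414 and 5645 on the EGF arrays. Its treated arrays agreed closely, and it rose by 5.47 ± 0.43 (adjusted p = 5.92e-07). Serpinb2, the plasminogen activator inhibitor type 2, read 362.5, 330.8 and 294.5 on the control arrays and 14066, 11492 and 9572 on the EGF arrays. It also rose, by 5.04 ± 0.24 (adjusted p = 7.05e-09).

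Genes better known from neurons and epithelia were among the largest rises. Gap43, a growth cone protein, read 268.4, 252.2 and 320.8 on the control arrays and 7070.3, 6714 and 9274 on the EGF arrays, with EGF replicate 3 the highest array, and rose by 4.65 ± 0.33 (adjusted p = 1.83e-07). Ptprn, a protein of dense-core secretory vesicles, read 165.8, 347.2 and 478.4 on the control arrays and 7031, 10138 and 9587 on the EGF arrays. Its treated arrays stood together above a wider spread of controls, and it rose by 4.75 ± 0.38 (adjusted p = 6.56e-07). Pkp1, a plaque protein of desmosomes, read 652.2, 725.9 and 553.6 on the control arrays and 15536, 17066 and 16445 on the EGF arrays. The treated arrays differed little from each other, and Pkp1 rose by 4.62 ± 0.17 (adjusted p = 8.99e-10). Emb, the membrane glycoprotein embigin that carries monocarboxylate transporters to the surface, read 283.7, 266.1 and 170.4 on the control arrays and 5299.7, 6259.5 and 6673 on the EGF arrays. No treated array came near the controls, and Emb rose by 4.55 ± 0.20 (adjusted p = 3e-09).

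The remaining rises were signalling, mineral and matrix genes. Dok5, an adaptor that docks to receptor tyrosine kinases, read 594.5, 435.0 and 830.3 on the control arrays and 16178, 16325 and 10997 on the EGF arrays. Replicate 3 of EGF was below the other treated arrays, and Dok5 rose by 4.52 ± 0.22 (adjusted p = 9.27e-09). Esm1, the secreted proteoglycan endocan, read 1084, 1247 and 2034 on the control arrays and 29901, 39759 and 26816 on the EGF arrays. Control replicate 3 was the highest of the controls, still far under the treated arrays, and Esm1 rose by 4.48 ± 0.21 (adjusted p = 4.8e-09). Ankh, which exports pyrophosphate and so limits mineral deposition, read 1190.4, 1559.7 and 1485 on the control arrays and 30556, 33602 and 24645 on the EGF arrays. It rose by 4.36 ± 0.16 (adjusted p = 6.78e-10), and EGF replicate 3 was again the lowest treated array. Vcan, the gene of the chondroitin sulfate proteoglycan versican, rose by 4.64 ± 0.20 (adjusted p = 2.7e-09), and C9h6orf141 by 4.68 ± 0.21 (adjusted p = 3e-09).

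The largest falls were in genes of varied function, among them Aldoc, Cldn11, Sult1a1, Dhrs3 and Angpt2. Aldoc, the brain isoform of the glycolytic enzyme aldolase, read 2234, 2811 and 2921 on the control arrays and 19.9, 52.8 and 20.3 on the EGF arrays. The treated arrays were at background in all replicates, and Aldoc fell, at -5.64 ± 0.64 (adjusted p = 1.81e-05). With an offset of 96.8 in place of 24.4 its log2 fold change was -4.43. Cldn11, a tight junction claudin of myelin and other barriers, read 47854, 45758 and 44080.1 on the control arrays and 1298, 1134 and 1007 on the EGF arrays. The controls were among the bright signals of the array while the treated arrays lay close together far below, at -5.30 ± 0.12 (adjusted p = 2.34e-11). The other Cldn11 probe set had -1.99. Summed over the oligodendrocyte markers, which include Cldn11, the signal ran from 57859.8 to 61989 in the controls and from 7324 to 9012 with EGF, and Sox10 was under 96.8 on every 12 h array. Sult1a1, a sulfotransferase of phenols and catecholamines, read 10184, 9914 and 11351 on the control arrays and 222.0, 231.8 and 251.9 on the EGF arrays. Its arrays hardly varied within a group, and it fell, at -5.34 ± 0.13 (adjusted p = 2.44e-11).

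Rapgef5, an exchange factor for the GTPase Rap, read 7639, 8046 and 9769.9 on the control arrays and 230.9, 110.9 and 163.8 on the EGF arrays. It fell, at -5.50 ± 0.25 (adjusted p = 4.18e-09), with no array between the groups. Angpt2, a ligand of the endothelial receptor Tie2, read 4619, 3459 and 3539 on the control arrays and 80.2, 175.9 and 79.8 on the EGF arrays. It fell, at -4.90 ± 0.23 (adjusted p = 4.8e-09). Rcan2, a regulator of the phosphatase calcineurin, read 20229, 16663 and 18592 on the control arrays and 1051, 880.0 and 815.3 on the EGF arrays. It fell, at -4.30 ± 0.14 (adjusted p = 3.67e-10), and EGF replicate 3 was its lowest array. The neural membrane genes Adam22, a partner of the secreted protein Lgi1, and Lrrc4c, a ligand of netrin-G, fell as well. Adam22 read 3153, 3110.5 and 3290.5 on the control arrays and 169.2, 57.3 and 165.4 on the EGF arrays, a log2 fold change of -4.48 ± 0.33 (adjusted p = 2.58e-07). Lrrc4c read 1952, 1931 and 1493 on the control arrays and 123.5, 168.0 and 3.6 on the EGF arrays. On EGF replicate 3 it was far under the other treated arrays, and its log2 fold change of -4.28 ± 0.63 (adjusted p = 0.000148) was -3.42 (adjusted p = 3.22e-05) without that array. Lrtm2 (-5.33), Dmrtc1a (-4.51), Tsga10 (-4.31) and Olfml2a (-4.29) completed the falls outside the groups below. The means of Aldoc, Lrtm2, Adh1c, Dmrtc1a and Gjb6 lay near background with EGF. Besides Aldoc, Gjb6 and Lrrc4c had means over the filter of 215 only in the 12 h controls, so their tests rest on that group too.

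**Figure D3:**
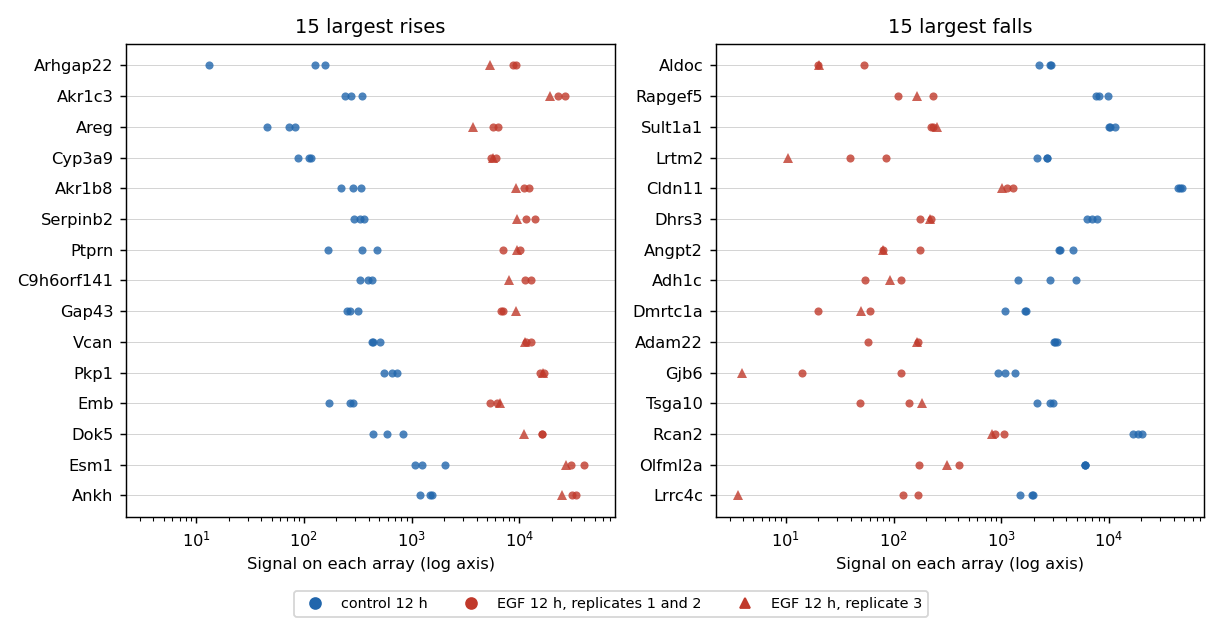
Signal on each 12 h array (log axis) of the 15 largest rises and 15 largest falls, with controls in blue, EGF replicates 1 and 2 as red circles and EGF replicate 3 as a red triangle. By the rule of choice no treated array overlapped a control in these genes, and EGF replicate 3 lay furthest from its group in Lrrc4c, at 3.6 against 123.5 and 168.0.

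The receptor gene Egfr and the ligand gene Egf fell, while the ligand genes Areg and Hbegf rose. Egfr itself read 8412, 8278 and 7295 on the control arrays and 6572, 5073 and 5293 on the EGF arrays. All treated arrays lay under all controls by a small margin, and Egfr fell, at -0.51 ± 0.13 (adjusted p = 0.00978). Of the 9 measured EGF family ligands and receptors, 2 rose and 2 fell. That was 22.2% and 22.2% of the list, near 16.5% and 24.2% of all genes. Beside Areg, the ligand gene Hbegf rose. It read 299.1, 172.7 and 19.4 on the control arrays and 926.8, 1041 and 2376 on the EGF arrays, where both groups spread widely without overlap, and its log2 fold change was 3.26 ± 0.55 (adjusted p = 0.000466). The gene of EGF itself (Egf) read 674.3, 420.8 and 557.3 on the control arrays and 140.7, 170.9 and 132.1 on the EGF arrays. The treated arrays were uniformly lower, and Egf fell, at -1.72 ± 0.36 (adjusted p = 0.00222). Tgfa, Ereg, Btc, Nrg1 and Erbb2 did not pass the threshold.

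Inhibitors of the receptor's pathway were higher at 12 h. Of the feedback inhibitors and Pea3 family factors, 13 of the 21 measured members rose and 2 fell, with a median of 1.01 against -0.09 for all genes, and 13 rose and 2 fell without EGF replicate 3. Dusp6, a phosphatase of ERK in the cytoplasm, read 4808, 4451 and 3666 on the control arrays and 37844, 61076 and 49659 on the EGF arrays. The treated arrays varied among themselves but lay well above the controls, and Dusp6 rose by 3.50 ± 0.19 (adjusted p = 2.21e-08). Its nuclear counterpart Dusp5 read 309.2, 239.4 and 232.2 on the control arrays and 4039, 4132 and 3937 on the EGF arrays. The treated arrays were nearly equal, and Dusp5 rose by 3.84 ± 0.21 (adjusted p = 2.57e-08). Rasa1, a GTPase-activating protein that switches RAS off, rose by 2.94 ± 0.19 (adjusted p = 8.04e-08). The members that fell were Lrig3 (-1.71) and Dusp1 (-0.65).

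Early response factors were also higher. Among the immediate early and AP-1 factors, 13 of the 21 measured members rose and 0 fell, with a median of 0.89, the unadjusted p was under 0.05 for 1 lower member, and 15 rose and 1 fell without EGF replicate 3. Fosl1, an AP-1 subunit of the late phase of ERK signalling, read 411.7, 293.6 and 269.8 on the control arrays and 4279, 4136 and 3338 on the EGF arrays. It rose by 3.51 ± 0.22 (adjusted p = 6.81e-08), with EGF replicate 3 the lowest treated array. Jun, the partner of Fos proteins in AP-1, read 2306, 2811 and 2487 on the control arrays and 10153, 9505 and 12596 on the EGF arrays. It rose by 2.07 ± 0.17 (adjusted p = 6.87e-07), with EGF replicate 3 the highest array. Egr1, a zinc finger factor of the early response, read 11765, 11809.5 and 10567 on the control arrays and 32264, 34154 and 33759 on the EGF arrays. It rose by 1.55 ± 0.13 (adjusted p = 7.27e-07), and Klf6, a Krüppel-like factor, by 1.79 ± 0.13 (adjusted p = 2.04e-07). The AP-1 site TGANTCA, on either strand, was in the 250 bases before the start of 0 of 14 of the early factors and 0 of 20 of the feedback genes with a RefSeq promoter, and of 6.36% of all promoters.

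Genes of cholesterol synthesis had the highest median of the 38 lists that are not marker lists. Of the sterol synthesis and uptake genes, 15 of the 20 measured members rose and 0 fell, with a median of 1.29, where 0 were lower at an unadjusted p under 0.05, and 16 rose and 0 fell without EGF replicate 3. Hsd17b7, which acts in the last steps of the pathway, read 812.5, 889.5 and 888.5 on the control arrays and 6803, 5551 and 5447 on the EGF arrays. The treated arrays were close to each other, and it rose by 2.74 ± 0.14 (adjusted p = 1.24e-08). Fdps, the farnesyl diphosphate synthase, read 2696, 3015 and 3266 on the control arrays and 11410.3, 16309 and 14739 on the EGF arrays. It rose by 2.22 ± 0.14 (adjusted p = 8.04e-08). Msmo1, a methylsterol oxidase, rose by 2.37 ± 0.19 (adjusted p = 5.83e-07), and Insig1, which retains the sterol sensor complex in the endoplasmic reticulum, by 1.92 ± 0.18 (adjusted p = 3.72e-06). The rises ran from 0.82 for Lss to 3.59 for Idi1. The sterol regulatory element TCACNCCAC, on either strand, was in the 250 bases before the start of 0 of 16 of these genes with a RefSeq promoter (GRCr8) and of 0.976% of all 27457 promoters.

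Fatty acid genes followed in part. In fatty acid synthesis, 9 of the 19 measured members rose and 0 fell, with a median of 0.34, with 0 lower at an unadjusted p under 0.05. Rises were 47.4% of the list, beside 16.5% of all genes. Acsl4, which activates long polyunsaturated fatty acids, read 1889, 2072 and 2424 on the control arrays and 7868, 8721 and 8312 on the EGF arrays. It rose by 1.96 ± 0.13 (adjusted p = 8.61e-08) with little spread in either group. Elovl6, an elongase of saturated fatty acids, read 1674, 1229 and 1431 on the control arrays and 5841, 4499 and 3362 on the EGF arrays. The lowest treated array was replicate 3, and Elovl6 rose by 1.62 ± 0.21 (adjusted p = 4.32e-05). The synthase Fasn rose by 1.06 ± 0.14 (adjusted p = 7.53e-05) and citrate lyase Acly by 0.91 ± 0.13 (adjusted p = 0.000135).

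Most steps of glycolysis rose while the aldolase isoform Aldoc fell. Of the glycolysis and lactate genes, 14 of the 20 measured members rose and 3 fell, with a median of 0.92, and 13 rose and 3 fell without EGF replicate 3. With all arrays 70% of the list rose and 15% fell, beside 16.5% and 24.2% of all genes. Pfkp, a phosphofructokinase that commits glucose to glycolysis, read 1603, 1389.5 and 1775 on the control arrays and 10714, 10307 and 7661 on the EGF arrays. Among the treated arrays replicate 3 was lowest, and Pfkp rose by 2.56 ± 0.15 (adjusted p = 4.44e-08). Ldha, which turns pyruvate into lactate, read 8701, 8113 and 8436 on the control arrays and 31408, 37669 and 48699 on the EGF arrays. Here EGF replicate 3 was the highest array, and Ldha rose by 2.20 ± 0.14 (adjusted p = 1.08e-07). Eno1, the enolase, rose by 1.91 ± 0.15 (adjusted p = 5.42e-07), and Pfkfb3, which makes the activator of phosphofructokinase, by 2.03 ± 0.20 (adjusted p = 4.42e-06), or 0.29 by its other probe set. The falls were Aldoc (-5.64), the lactate transporter Slc16a1 (-1.12) and the muscle phosphofructokinase Pfkm (-0.66).

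Genes of the hypoxia response, which overlap with glycolysis in their control, split. Of these, 4 of the 14 measured members rose and 5 fell, with a median of -0.12, and the median was 0.04 when all probe sets of a gene were used. This list had 28.6% rises and 35.7% falls, and all genes 16.5% and 24.2%. Car9, a carbonic anhydrase of hypoxic cells, read 998.4, 828.9 and 575.8 on the control arrays and 3085, 3002 and 2362 on the EGF arrays. It rose by 1.81 ± 0.20 (adjusted p = 1.57e-05), and Higd1a, a mitochondrial protein, by 1.57 ± 0.13 (adjusted p = 1.05e-06). Adm, the vasodilator adrenomedullin, read 2919, 3856 and 3759 on the control arrays and 1016, 1454 and 1222 on the EGF arrays. It fell, at -1.50 ± 0.19 (adjusted p = 3.59e-05), and Ndrg1, a stress response gene, fell as well, at -1.21 ± 0.14 (adjusted p = 2.08e-05), with -0.39 by its other probe set. The core ACGTG of the hypoxia element, searched on both strands, is in the 250 bases before the start of 8 of the 18 glycolysis genes with a RefSeq promoter, 44.4%, and of 16.9% of all 27457 promoters in that table (GRCr8). All 8 genes with the core passed the test in 1 direction or the other, as did 15 of the 18. The 8 hold all 3 glycolysis genes that fell, Aldoc, Pfkm and Slc16a1, and the rest of the 8 rose. A match is a description of these letters and no evidence of binding. Stretches of Ldha, at chr1:106507974-106508068 (plus strand), and Pfkfb3, at chr17:71944847-71944932 (plus strand), are shown as examples that rose, with ACGTG and its reverse CACGT in capitals.
Ldha promoter: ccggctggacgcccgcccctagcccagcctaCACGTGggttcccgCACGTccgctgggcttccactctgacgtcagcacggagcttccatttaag
Pfkfb3 promoter: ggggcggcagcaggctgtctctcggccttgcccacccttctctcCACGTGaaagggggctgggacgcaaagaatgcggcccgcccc

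Genes of redox defence and carbonyl reduction moved in both directions. In the list of NRF2 targets, aldo-keto reductases and pentose phosphate genes, 11 of the 26 measured members rose and 7 fell, with a median of 0.28. As shares these were 42.3% and 26.9%, the falls being near the 24.2% of all genes and the rises above their 16.5%. Slc7a11, the cystine importer of glutathione synthesis, read 278.1, 167.8 and 215.5 on the control arrays and 1843, 1337 and 1158 on the EGF arrays. All treated arrays lay far above the controls, and it rose by 2.58 ± 0.23 (adjusted p = 1.63e-06). Gstp1, a glutathione transferase, read 7182, 7102 and 7095 on the control arrays and 22391, 39289.9 and 49481 on the EGF arrays. The controls were almost equal while the treated arrays rose to different heights, replicate 3 the highest, and Gstp1 rose by 2.30 ± 0.22 (adjusted p = 3.65e-06). The fall of another glutathione transferase, Gsta4 (-3.21), was the deepest in the list, and Nfe2l2 (-0.61), the gene of NRF2, and its inhibitor Keap1 (-0.47) fell slightly. The antioxidant response element TGACNNNGC, on either strand, is in the 250 bases before the start of 4 of 23 of these genes (17.4%) and of 10.2% of all promoters. Of the 4, 1 passed the test, and of all 23, 15 did. That 1 is Gstp1, shown at chr1:210769713-210769811 (minus strand) with the element in capitals.
Gstp1 promoter: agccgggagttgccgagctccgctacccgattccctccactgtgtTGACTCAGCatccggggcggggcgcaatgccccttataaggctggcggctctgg

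Genes of drug oxidation and conjugation moved in both directions. In xenobiotic oxidation and conjugation, 4 of the 23 measured members rose and 9 fell, with a median of -0.57, and 5 rose and 10 fell without EGF replicate 3. The shares were 17.4% and 39.1% of the list, beside 16.5% and 24.2% of all genes. Aldh3a1, an aldehyde dehydrogenase, was among the rises. It read 1311, 1108 and 1533 on the control arrays and 6996, 8551 and 13691 on the EGF arrays. The highest array was EGF replicate 3, and it rose by 2.82 ± 0.25 (adjusted p = 1.54e-06). Some enzymes that handle retinoids fell and others did not pass the threshold, among them Aldh1a1 (-0.49) and Aldh1a3 (0.68), which make retinoic acid. Cyp26b1, which degrades retinoic acid, read 32989, 35352 and 34334 on the control arrays and 4629, 3467 and 4682 on the EGF arrays. The fall was of -3.01 ± 0.15 (adjusted p = 7.8e-09), with tight groups. Aldh1a2, which makes retinoic acid and is also a meningeal marker, read 1916, 4005 and 7607 on the control arrays and 412.9, 330.9 and 703.7 on the EGF arrays. The controls spread widely, and it fell, at -3.01 ± 0.40 (adjusted p = 6.1e-05). Dhrs3, which returns retinaldehyde to retinol, read 7693, 6999 and 6304 on the control arrays and 177.2, 223.0 and 219.9 on the EGF arrays. It fell, at -4.93 ± 0.19 (adjusted p = 1.31e-09), and Adh1c, an alcohol dehydrogenase, at -4.64 ± 0.40 (adjusted p = 1.49e-06).

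Amino acid transporters and aminoacyl-tRNA synthetases were mostly higher. Of the genes of the ATF4 programme and amino acid supply, 20 of the 33 measured members rose and 3 fell, with a median of 0.83, and 22 rose and 4 fell without EGF replicate 3. Slc7a1, the importer of arginine and lysine, read 452.7, 494.6 and 409.3 on the control arrays and 6119, 5494 and 5316 on the EGF arrays. No treated array was near the controls, and Slc7a1 rose by 3.57 ± 0.21 (adjusted p = 3.85e-08). Mthfd2, a mitochondrial enzyme of folate metabolism, read 490.6, 277.9 and 331.2 on the control arrays and 1892, 1887 and 1353 on the EGF arrays. Lowest of the treated arrays was replicate 3, and Mthfd2 rose by 2.17 ± 0.24 (adjusted p = 1.3e-05). Nars1, the asparaginyl-tRNA synthetase, read 5522, 4947 and 5292 on the control arrays and 10577, 9989 and 11491 on the EGF arrays. The groups were tight, and it rose by 1.02 ± 0.11 (adjusted p = 1e-05). Atf4 (1.65) and its target Trib3 (1.48) rose, whereas Ddit3 and Chac1 did not pass the threshold.

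The element TGATGNAA, bound by ATF4 with C/EBP partners, was searched on both strands after these values were seen. It is in the 250 bases before the start of 12 of the 30 genes of the list with a RefSeq promoter (40%), and of 3.27% of all promoters (GRCr8). Of the 12 genes, 7 passed the test, and of all 30, 20. The list was drawn up from known ATF4 targets, so a higher share is no independent finding. Stretches are shown for genes that rose, Slc7a1 at chr12:11664413-11664487 (plus strand), Iars1 at chr17:15193653-15193721 (minus strand), Mars1 at chr7:65023754-65023815 (minus strand) and Tars1 at chr2:62114803-62114874 (minus strand), with the element or its reverse in capitals.
Slc7a1 promoter: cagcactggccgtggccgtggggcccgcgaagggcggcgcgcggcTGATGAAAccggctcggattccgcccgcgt
Iars1 promoter: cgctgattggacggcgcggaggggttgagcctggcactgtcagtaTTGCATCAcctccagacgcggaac
Mars1 promoter: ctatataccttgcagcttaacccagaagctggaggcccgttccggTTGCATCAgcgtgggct
Tars1 promoter: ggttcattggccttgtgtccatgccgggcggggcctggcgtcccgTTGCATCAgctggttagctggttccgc

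Many chaperone genes were moderately higher. In the endoplasmic reticulum, 9 of the 22 measured members rose and 3 fell, with a median of 0.46, and of the cytosolic and mitochondrial heat shock proteins, 14 of the 26 measured members rose and 3 fell, with a median of 0.52. With array quality weights 14 of the former rose. Without EGF replicate 3, 12 of the heat shock genes rose and 3 fell. With all arrays 40.9% of the reticulum list rose and 13.6% fell, beside 16.5% and 24.2% of all genes. For the heat shock list these shares were 53.8% and 11.5%. Cct7 and Tcp1, subunits of the ring chaperonin that folds actin and tubulin, rose by 1.04 ± 0.13 (adjusted p = 4.76e-05) and 0.95 ± 0.13 (adjusted p = 6.56e-05). Manf, a secreted factor of the stressed reticulum, rose by 0.97 ± 0.13 (adjusted p = 8.73e-05), and the transcription factor Xbp1 by 0.74 ± 0.12 (adjusted p = 0.000383). Herpud1, which serves degradation at the reticulum, read 6453, 7177 and 8967 on the control arrays and 3376, 3816 and 1880.4 on the EGF arrays. By far the lowest was EGF replicate 3, and Herpud1 fell, at -1.36 ± 0.22 (adjusted p = 0.000372) with all arrays and -1.05 (adjusted p = 7.63e-05) without it. Ero1b, an oxidase of disulfide formation, fell, at -1.74 ± 0.20 (adjusted p = 1.54e-05), and the co-chaperone Dnajb4 at -1.22 ± 0.14 (adjusted p = 2.36e-05).

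Most genes that build ribosomes were higher by small amounts. In ribosome biogenesis, 22 of the 36 measured members rose and 0 fell, with a median of 0.47, with 0 lower at an unadjusted p under 0.05, and 22 rose and 0 fell without EGF replicate 3. With each 12 h array left out in turn, 16 to 22 rose and 0 to 1 fell. Fbl, the methylase fibrillarin of ribosomal RNA, read 5402, 6173 and 6322 on the control arrays and 14893, 15896 and 11221 on the EGF arrays. The lowest treated array was replicate 3, and Fbl rose by 1.22 ± 0.14 (adjusted p = 1.45e-05). Its partners in the same particle, Nop58 and Nop56, rose by 1.15 ± 0.16 (adjusted p = 8.39e-05) and 1.10 ± 0.16 (adjusted p = 0.000112), and Rrp9 by 1.15 ± 0.15 (adjusted p = 4.64e-05).

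Most proteasome subunits were higher, the rises reaching 1.17 for Psmd8. Of these, 23 of the 34 measured members rose and 0 fell, with a median of 0.56, with 0 lower at an unadjusted p under 0.05, and 24 rose and 0 fell without EGF replicate 3. Psma7, a subunit of the core ring, read 11469, 9975 and 11636 on the control arrays and 21025, 24197 and 16674 on the EGF arrays. Again replicate 3 was lowest of the treated, and Psma7 rose by 0.89 ± 0.14 (adjusted p = 0.000261). Psmd2 of the regulatory base read 10113, 10893 and 10768 on the control arrays and 15302, 18268 and 19432 on the EGF arrays. It rose by 0.73 ± 0.12 (adjusted p = 0.000326), and Psmc4 and Psmd6 by 0.66 and 0.58.

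For ribosomal proteins and respiratory chain subunits the counts depended on single arrays. Of the ribosomal protein genes, 8 of the 27 measured members rose and 0 fell, with a median of 0.27, and of the oxidative phosphorylation subunits, 6 of the 45 measured members rose and 0 fell, with a median of 0.15. At an unadjusted p under 0.05, 0 ribosomal protein genes and 1 respiratory gene were lower. Rises were 29.6% of the ribosomal protein list and 13.3% of the respiratory list, beside 16.5% of all genes. The share of respiratory rises was thus under that of all genes. Without EGF replicate 1 the rises numbered 14 and 14. Without control replicate 1 they numbered 4 and 3, without control replicate 2 4 and 3, and without control replicate 3 5 and 3. Without EGF replicate 2 or EGF replicate 3, 5 ribosomal protein genes rose. Rpl14, a protein of the large subunit, read 9309.6, 10818 and 10233 on the control arrays and 13077, 16256 and 39999.7 on the EGF arrays. The highest array by far was EGF replicate 3, and the log2 fold change was 1.01 ± 0.29 (adjusted p = 0.0158) with it and 0.53 (adjusted p = 0.00535) without it. Cox7b, a small subunit of cytochrome oxidase, read 5130.1, 6026 and 6276 on the control arrays and 6375, 9571 and 26692 on the EGF arrays. The same array was again highest, and the values were 1.02 ± 0.36 (adjusted p = 0.0389) with it and 0.43 (adjusted p = 0.0444) without it. Uqcrc1 of the cytochrome bc1 complex read 7348, 6954 and 6269 on the control arrays and 9741, 11796 and 13244 on the EGF arrays and rose by 0.75 ± 0.14 (adjusted p = 0.00101). After median centring 12 respiratory genes rose. The part of the 3' to 5' ratios of EGF replicate 3 in these values was not tested.

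**Figure D4:**
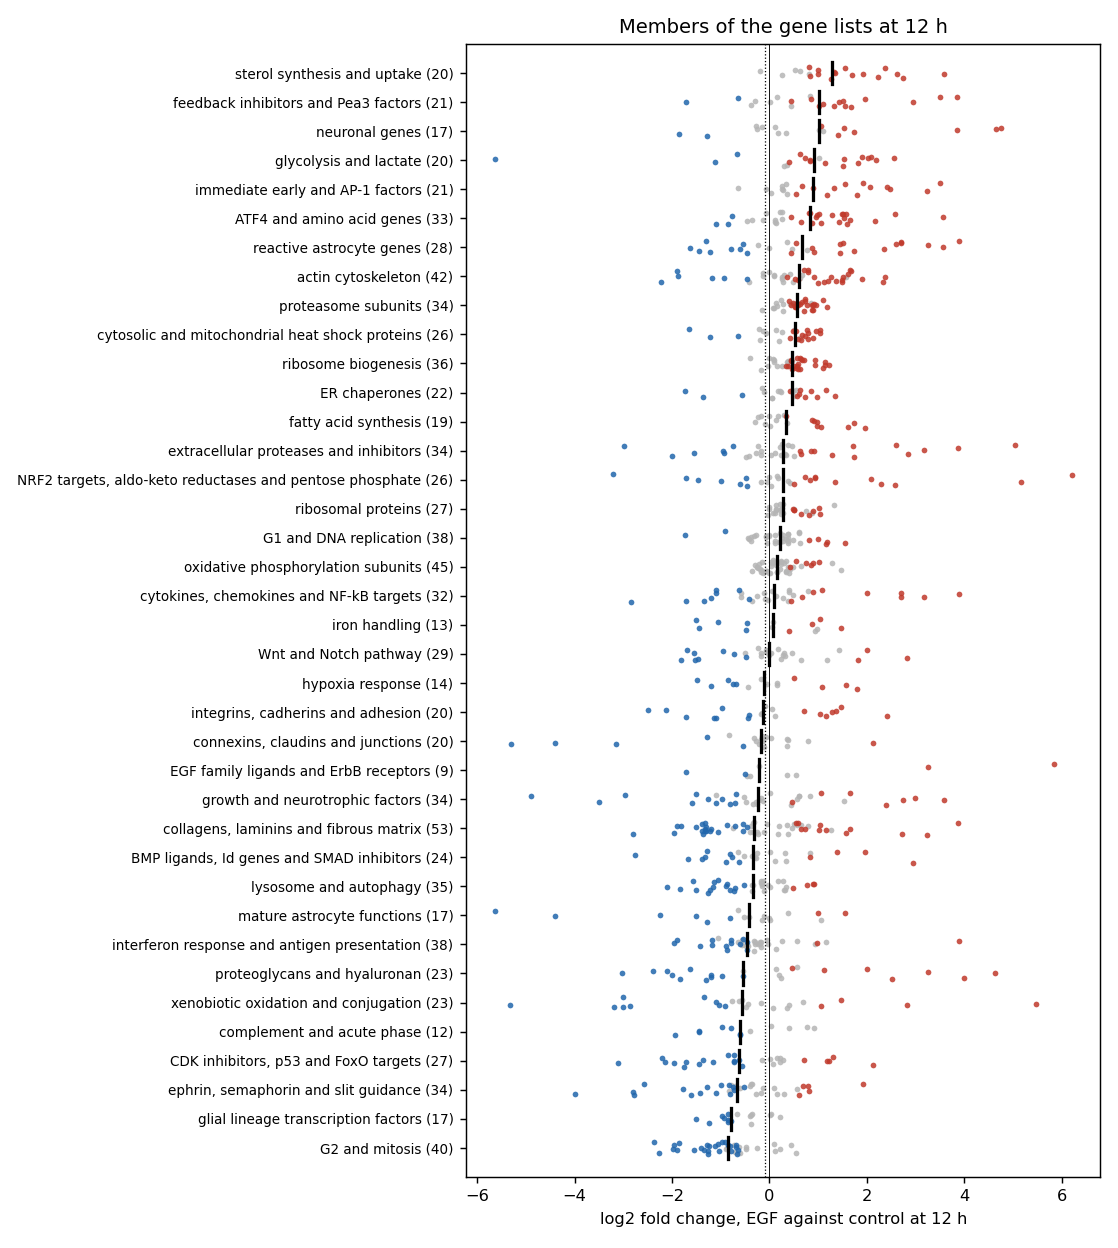
Log2 fold change at 12 h (horizontal) of every measured member of the 38 gene lists (number measured in brackets), with rises in red, falls in blue and other members in grey, ordered by the median of each list (black bar). The dotted line is the median of all genes, -0.09, and list medians run from -0.86 for G2 and mitosis to 1.29 for sterol synthesis and uptake.

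Many genes of mitosis fell while few genes of G1 and DNA replication changed. In G1 and DNA replication, 5 of the 38 measured members rose and 2 fell, with a median of 0.22, and 8 rose after median centring. With no centring 13.2% of the list rose and 5.26% fell, under the 16.5% and 24.2% of all genes. Ccnd1, the cyclin D1 that EGF induces to start the cycle, read 7878, 10849 and 9288 on the control arrays and 19107, 21388 and 22789 on the EGF arrays. It rose by 1.18 ± 0.19 (adjusted p = 0.000342) with no overlap. The licensing genes Mcm6 and Orc6 rose by 1.00 ± 0.16 (adjusted p = 0.000358) and 1.16 ± 0.19 (adjusted p = 0.000321). Rrm1, the large subunit of ribonucleotide reductase, read 6118, 6174 and 6718 on the control arrays and 2216, 2038 and 1464 on the EGF arrays. It fell, at -1.74 ± 0.15 (adjusted p = 1.39e-06), with EGF replicate 3 the lowest array.

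In G2 and mitosis, 0 of the 40 measured members rose and 25 fell, with a median of -0.86, where 1 was higher in limma at an unadjusted p under 0.05, and 1 rose and 20 fell without EGF replicate 3. With only the probe sets above the 60th percentile of mean signal, 14 fell, since fewer members were tested. With each 12 h array left out in turn 17 to 25 fell, and 21 fell after median centring or quantile normalization. The 25 falls were 62.5% of the list, beside 24.2% of all genes. Nusap1, a spindle protein, read 1717, 1667 and 1874 on the control arrays and 523.9, 313.0 and 482.1 on the EGF arrays. It fell, at -1.97 ± 0.20 (adjusted p = 7.17e-06), with -0.95 by its other probe set. Ect2, the exchange factor of cytokinesis, read 1831, 2046 and 2643 on the control arrays and 648.2, 345.1 and 344.5 on the EGF arrays. EGF replicate 1 was above the other treated arrays and under the controls, and Ect2 fell, at -2.27 ± 0.26 (adjusted p = 2.09e-05). The kinesin Kif20b fell, at -1.85 ± 0.30 (adjusted p = 0.000316), and Cdca3 at -1.29 ± 0.19 (adjusted p = 0.000174).

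The cell cycle genes homology region (CHR), TTTGAA or TTCGAA on either strand, is a promoter element through which many mitotic genes are repressed in resting cells. It is in the 250 bases before the start of 21 of the 34 mitotic genes with a RefSeq promoter (61.8%) and of 17.3% of all promoters (GRCr8). Of the 21 with it, 13 fell, and of all 34, 22 fell, a similar share. Matches are descriptions of the letters only. Stretches of Ect2, at chr2:111966731-111966826 (minus strand), Kif20b, at chr1:241840855-241840950 (plus strand), Prc1, at chr1:143659418-143659480 (plus strand), and Top2a, at chr10:84473094-84473160 (minus strand), all of which fell, show the element or its reverse in capitals.
Ect2 promoter: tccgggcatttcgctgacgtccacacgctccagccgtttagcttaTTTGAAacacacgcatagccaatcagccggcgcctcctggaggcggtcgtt
Kif20b promoter: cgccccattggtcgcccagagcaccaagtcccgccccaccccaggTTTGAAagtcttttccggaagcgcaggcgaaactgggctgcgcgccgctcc
Prc1 promoter: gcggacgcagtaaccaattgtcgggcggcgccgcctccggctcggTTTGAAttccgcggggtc
Top2a promoter: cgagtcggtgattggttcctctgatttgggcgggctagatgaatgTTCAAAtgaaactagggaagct

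Brakes of the cell cycle and FoxO targets were mostly lower. Of the kinase inhibitors, p53 and FoxO targets, 5 of the 27 measured members rose and 15 fell, with a median of -0.63, and 4 rose and 15 fell without EGF replicate 3. With all arrays 55.6% of the list fell, beside 24.2% of all genes, while 18.5% rose, near the 16.5% of all genes. Klf15, a Krüppel-like factor of fasting and glucocorticoid responses, read 3628, 3496 and 3891 on the control arrays and 467.2, 397.1 and 352.2 on the EGF arrays. It fell, at -3.11 ± 0.20 (adjusted p = 9.25e-08), and the treated arrays were close. Gadd45b, a stress sensor, fell, at -2.21 ± 0.15 (adjusted p = 1.38e-07). Ccng2, a cyclin of quiescent cells, read 12965, 11359 and 12751 on the control arrays and 4914, 4737 and 3884 on the EGF arrays. It fell, at -1.45 ± 0.14 (adjusted p = 3.35e-06). Sesn1, which restrains mTOR signalling, fell, at -2.15 ± 0.21 (adjusted p = 5e-06), while its other probe set had 0.40. The inhibitors Cdkn2b (2.12) and Cdkn2a (1.22) rose, Cdkn1c (-1.75) and Cdkn1b (-0.72) fell.

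Proteoglycans moved in both directions. In proteoglycans and hyaluronan, 7 of the 23 measured members rose and 11 fell, with a median of -0.54. Rises were 30.4% and falls 47.8% of the list, beside 16.5% and 24.2% of all genes. Versican read 436.6, 504.9 and 425.4 on the control arrays and 12946, 11634 and 11234 on the EGF arrays, 3 treated arrays close together far above the controls. Sdc1, the heparan sulfate proteoglycan syndecan 1, read 2374, 1956 and 2396 on the control arrays and 31438, 37210.0 and 38941 on the EGF arrays. It rose by 3.99 ± 0.13 (adjusted p = 3.67e-10). Cd44, the receptor of hyaluronan, read 1709.9, 1696 and 1740.2 on the control arrays and 17591, 16128 and 16160.2 on the EGF arrays. Both groups were tight, and Cd44 rose by 3.26 ± 0.11 (adjusted p = 3.67e-10). The small leucine-rich proteoglycan decorin (Dcn), a fibroblast marker, read 29639, 22926 and 19745 on the control arrays and 3271, 2931 and 2488 on the EGF arrays. It fell, at -3.03 ± 0.16 (adjusted p = 1.9e-08), and Ogn, of the same family and marker list, read 35019, 34122 and 43252 on the control arrays and 9639.9, 9084 and 9285 on the EGF arrays. Ogn fell, at -1.99 ± 0.14 (adjusted p = 1.74e-07). Of the 13 fibroblast and meningeal markers tested, 1 rose (7.69%) and 8 fell (61.5%). Their part in the falls of matrix genes was not tested.

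Fibrous matrix genes moved in both directions. Of the collagens, laminins and fibrous matrix genes, 12 of the 53 measured members rose and 21 fell, with a median of -0.32, and 15 rose and 22 fell without EGF replicate 3. That was 22.6% and 39.6% of the list, beside 16.5% and 24.2% of all genes. Ltbp1, which holds latent TGF-beta in the matrix, read 152.8, 130.8 and 107.5 on the control arrays and 1393, 1328 and 1578 on the EGF arrays. It rose by 3.24 ± 0.19 (adjusted p = 5.12e-08). Nid2, a linker of basement membranes, read 2206, 2495 and 1678 on the control arrays and 15458, 14814 and 11949.6 on the EGF arrays. The lowest treated array was replicate 3, and Nid2 rose by 2.72 ± 0.16 (adjusted p = 5.61e-08). Col8a2, a network collagen, read 62678, 60867 and 68986 on the control arrays and 17826, 19050.5 and 13208 on the EGF arrays. It fell, at -1.96 ± 0.15 (adjusted p = 4.83e-07), and Mfap5, a microfibril protein, at -1.91 ± 0.17 (adjusted p = 1.5e-06). Col1a2 (-0.70) and Col3a1 (-0.47) fell by less, and Col1a1, which read 33044, 38049 and 29667 in the controls and 18108, 27385 and 66392 with EGF, did not pass the threshold. Its highest array was EGF replicate 3.

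Several proteases and inhibitors of the plasminogen system rose. In extracellular proteases and inhibitors, 12 of the 34 measured members rose and 6 fell, with a median of 0.29. Rises were 35.3% and falls 17.6% of the list, beside 16.5% and 24.2% of all genes. Serpine2, the glial nexin that inhibits thrombin, read 3039, 2833 and 5258 on the control arrays and 25626, 36264 and 36882 on the EGF arrays. It rose by 3.18 ± 0.22 (adjusted p = 1.67e-07). Plaur (3.88), the urokinase receptor, and Plau (2.59), urokinase, rose too. Timp3, an inhibitor of metalloproteinases bound to matrix, read 21392, 21499 and 21091 on the control arrays and 6286, 5014 and 4669 on the EGF arrays. It fell, at -2.01 ± 0.13 (adjusted p = 1.03e-07), and of its other probe sets 1 had 0.38. Adamts5, which cleaves aggrecan and versican, read 4823, 8234 and 9667 on the control arrays and 1143, 1006 and 632.5 on the EGF arrays. It fell, at -2.98 ± 0.28 (adjusted p = 2.99e-06), the controls spreading widely.

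Receptors for matrix and neighbours moved in both directions. In integrins, cadherins and adhesion, 7 of the 20 measured members rose and 8 fell, with a median of -0.13 (35% and 40%, beside 16.5% and 24.2% of all genes), and 5 fell when only the 12 h arrays were fitted. Itga6, a laminin receptor subunit, read 1975, 2765 and 2116 on the control arrays and 12122, 13613 and 11027 on the EGF arrays. It rose by 2.42 ± 0.17 (adjusted p = 2.1e-07). Cdh1, the cadherin of epithelial junctions, read 20888, 23209 and 26621 on the control arrays and 3523, 3842 and 5239 on the EGF arrays. It fell, at -2.50 ± 0.18 (adjusted p = 2.04e-07), with EGF replicate 3 the highest treated array. The leukocyte adhesion genes Vcam1 and Icam1 fell, at -1.71 ± 0.20 (adjusted p = 2.15e-05) and -1.11 ± 0.13 (adjusted p = 1.7e-05).

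Axon guidance genes were often lower, 44.1% of the list beside 24.2% of all genes. Of ephrins, semaphorins, slits and their receptors, 5 of the 34 measured members rose and 15 fell, with a median of -0.66, and 5 rose and 17 fell without EGF replicate 3. Sema3e, a secreted semaphorin, read 4778, 5654 and 5641 on the control arrays and 1434, 697.1 and 655.6 on the EGF arrays. EGF replicate 1 was the highest treated array, and Sema3e fell, at -2.58 ± 0.23 (adjusted p = 2.2e-06). Epha3, an ephrin receptor, read 1832, 2300.1 and 2753 on the control arrays and 422.2, 219.9 and 305.8 on the EGF arrays. It fell, at -2.79 ± 0.28 (adjusted p = 5.18e-06). Sema5a and the semaphorin receptor Nrp2 fell, at -1.42 ± 0.15 (adjusted p = 1.18e-05) and -1.60 ± 0.19 (adjusted p = 2.53e-05). The ephrin Efnb3 had the deepest fall of the list, and the receptor Epha2 (1.92) rose furthest.

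The connexins Gjb2 and Gjb6, which join glial cells, fell, and Gja1 did not pass the threshold. In connexins, claudins and junctions, 1 of the 20 measured members rose and 5 fell, with a median of -0.17. That was 5% and 25% of the list, beside 16.5% and 24.2% of all genes, so the share of falls was near that of all genes. Gjb2 (connexin 26) read 49743, 53626 and 53489 on the control arrays and 6953, 6998 and 4196 on the EGF arrays. The treated arrays were far lower, replicate 3 the lowest, and Gjb2 fell, at -3.14 ± 0.17 (adjusted p = 1.91e-08). Gjb6 (connexin 30) read 930.5, 1082 and 1354 on the control arrays and 14.1, 117.7 and 3.9 on the EGF arrays. The treated arrays were at or near background and differed widely, and Gjb6 fell, at -4.40 ± 0.69 (adjusted p = 0.000268). Of its group means only that of the 12 h controls exceeded the filter of 215. The connexin Gja4 rose, from 507.4, 346.1 and 275.6 to 2094, 1939 and 1146, at 2.12 ± 0.28 (adjusted p = 5.94e-05). Gja1 (connexin 43), at 51744 to 79137 with EGF, had -0.16.

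Functions of mature astrocytes were lower in part. Of these genes, 2 of the 17 measured members rose and 6 fell, with a median of -0.41, and 2 rose and 7 fell without EGF replicate 3. With all arrays that was 11.8% and 35.3% of the list, beside 16.5% and 24.2% of all genes. Without EGF replicate 1, control replicate 2 or control replicate 3, 1 rose. Many others of the list were too dim to test, 38 being listed. Slc4a4, the sodium bicarbonate cotransporter of astrocyte endfeet, read 27858, 29257 and 30381 on the control arrays and 7069, 5722 and 5607 on the EGF arrays. It fell, at -2.25 ± 0.12 (adjusted p = 1.81e-08). Glul, which turns glutamate into glutamine, read 6551, 7606 and 7473 on the control arrays and 2679, 2739 and 3522 on the EGF arrays. It fell, at -1.28 ± 0.15 (adjusted p = 2.83e-05), while its other probe sets had 0.15 and -0.46. Fgfr3, a receptor of mature astrocytes, read 13286, 14281 and 12504 on the control arrays and 6224, 5483 and 2989 on the EGF arrays. Its lowest array was EGF replicate 3, and Fgfr3 fell, at -1.51 ± 0.22 (adjusted p = 0.000121), while its other probe set had -0.22. The glutamate transporter Slc1a3 read 336.3, 249.5 and 300.1 on the control arrays and 964.1, 787.6 and 341.2 on the EGF arrays. EGF replicate 3 lay close to the controls, and the log2 fold change was 1.06 ± 0.54 (adjusted p = 0.141). It passed the threshold without that array (adjusted p = 0.0427), and its adjusted p ran from 0.000954 to 0.334 over the alternatives. The other probe set of Slc1a3 had -0.66.

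Among genes known from reactive astrocytes more rose than fell. In that list, 15 of the 28 measured members rose and 8 fell, with a median of 0.66, and 14 rose and 8 fell without EGF replicate 3. That was 53.6% and 28.6% of the list, beside 16.5% and 24.2% of all genes. With each 12 h array left out in turn, 12 to 14 rose. Lgals3, the lectin galectin 3, read 2099, 1623 and 2061 on the control arrays and 19284, 26236 and 24252 on the EGF arrays. It rose by 3.57 ± 0.15 (adjusted p = 2.18e-09). Cxcl10, a chemokine for T cells, read 430.0, 324.7 and 570.3 on the control arrays and 5344, 7695 and 7322 on the EGF arrays. It rose by 3.89 ± 0.26 (adjusted p = 1.09e-07) with EGF replicate 1 the lowest treated array. The intermediate filament gene Nes (2.36) rose, and Vim did not pass the threshold, at 0.36 ± 0.15 (adjusted p = 0.0788) and 0.46 (adjusted p = 0.048) after median centring, with adjusted p of 0.00165 to 0.268 over the alternatives. Tm4sf1, a tetraspan membrane protein, fell, from 42420.2, 38245 and 34119 to 11489, 13990.1 and 11517, at -1.63 ± 0.13 (adjusted p = 4.68e-07).

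Many genes of the actin cytoskeleton rose. Of its genes, 21 of the 42 measured members rose and 6 fell, with a median of 0.61, and 22 rose and 6 fell without EGF replicate 3. With all arrays 50% of the list rose and 14.3% fell, beside 16.5% and 24.2% of all genes. Msn, the linker moesin between membrane and actin, read 6245, 7072 and 7445 on the control arrays and 29033, 41979 and 37311 on the EGF arrays. It rose by 2.37 ± 0.14 (adjusted p = 3.85e-08). Actn1, the crosslinker alpha-actinin, read 5409.7, 4911 and 4047 on the control arrays and 21820.2, 25111 and 25386 on the EGF arrays. It rose by 2.33 ± 0.15 (adjusted p = 1.06e-07), and Wdr1, a partner of cofilin, by 1.49 ± 0.11 (adjusted p = 4.54e-07). Some contractile genes shared with smooth muscle fell. Myl9, a regulatory myosin light chain, read 9029, 9296 and 6469 on the control arrays and 1990.4, 1627 and 1554 on the EGF arrays. It fell, at -2.23 ± 0.15 (adjusted p = 1.44e-07). Tagln, the actin-binding protein transgelin, read 15457, 13173 and 5666 on the control arrays and 2014, 3316 and 3387 on the EGF arrays. It fell, at -1.88 ± 0.30 (adjusted p = 0.000294), and Acta2 (0.48) did not pass the threshold. Summed over the smooth muscle markers, the signal ran from 9319 to 20463 in the controls and from 5372 to 9316 with EGF, and their part in these values was not tested.

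Chemokines moved apart. Of cytokines, chemokines and NF-kB targets, 9 of the 32 measured members rose and 8 fell, with a median of 0.10 (28.1% and 25%, beside 16.5% and 24.2% of all genes), and 11 rose and 7 fell without EGF replicate 3 with a median of -0.06. Without control replicate 2, 5 rose. Ptgs2, the inducible cyclooxygenase, read 894.8, 975.0 and 1254 on the control arrays and 7868, 7889 and 5141 on the EGF arrays. It rose by 2.70 ± 0.22 (adjusted p = 9.4e-07). Il1rl1, the receptor of interleukin 33, read 36.6, 167.8 and 69.0 on the control arrays and 1262, 697.1 and 846.2 on the EGF arrays. Its controls were near background, and it rose by 3.18 ± 0.36 (adjusted p = 1.5e-05), or 2.48 with the offset of 96.8. Cxcl12, a chemokine for progenitors and leukocytes, read 5374, 4728 and 4019 on the control arrays and 688.6, 716.1 and 498.0 on the EGF arrays. It fell, at -2.85 ± 0.17 (adjusted p = 5.97e-08), and its other probe sets had -0.67 and -1.56.

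Interferon response and complement genes were often lower, 34.2% and 58.3% of the lists beside 24.2% of all genes. In interferon response and antigen presentation, 2 of the 38 measured members rose and 13 fell, with a median of -0.45. Without EGF replicate 3, 4 rose and 18 fell, and with array quality weights 22 fell. With each 12 h array left out in turn, 9 to 18 fell, and after median centring 11 fell. Ifit2, an inhibitor of translation induced by interferon, read 3212, 3588 and 4965 on the control arrays and 1383, 865.5 and 751.3 on the EGF arrays. It fell, at -1.97 ± 0.21 (adjusted p = 1.08e-05). Mx2 and the regulator Irf7 fell, at -1.90 ± 0.19 (adjusted p = 4.85e-06) and -1.18 ± 0.17 (adjusted p = 0.000129). Of complement and acute phase genes, 0 of the 12 measured members rose and 7 fell, with a median of -0.61, where 1 was higher in limma at an unadjusted p under 0.05. Masp1, a protease of the lectin pathway, read 7379.7, 5057 and 4358 on the control arrays and 1524, 1487 and 1211 on the EGF arrays. It fell, at -1.94 ± 0.20 (adjusted p = 6.96e-06), with -0.36 by its other probe set, and C1r, which opens the classical pathway, at -0.98 ± 0.14 (adjusted p = 0.000142). Cd59b, which blocks the membrane attack complex, fell too, at -1.44 ± 0.12 (adjusted p = 1.05e-06). Cd68, a lysosomal marker of macrophages, read 132.7, 39.8 and 13.8 on the control arrays and 1055, 841.1 and 876.6 on the EGF arrays. It rose by 3.70 ± 0.58 (adjusted p = 0.000243) from near background, while Itgam, Trem2 and Ptprc were under 96.8 on every 12 h array. At 12 h only the EGF arrays of Cd68 exceeded the filter of 215, so its test leans on the group where it is high. Summed over the microglia and macrophage markers, the signal ran from 1359.7 to 1619 in the controls and from 2213 to 2879 with EGF, and their part in the immune lists was not tested.

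Growth factor genes moved in both directions. Of growth and neurotrophic factors, 7 of the 34 measured members rose and 11 fell, with a median of -0.24, and 9 rose and 11 fell without EGF replicate 3. That was 20.6% and 32.4% of the list, near 16.5% and 24.2% of all genes. Inhba, the activin A subunit, read 664.0, 506.4 and 655.9 on the control arrays and 9473, 7969.7 and 5623 on the EGF arrays. It rose by 3.58 ± 0.19 (adjusted p = 1.39e-08), EGF replicate 3 lowest among the treated arrays. Fgf2, a mitogen of astrocytes, read 146.7, 154.3 and 167.6 on the control arrays and 912.8, 889.0 and 979.8 on the EGF arrays. The groups were tight, and it rose by 2.40 ± 0.22 (adjusted p = 2.95e-06). Angptl4, a secreted inhibitor of lipoprotein lipase, read 2477, 1708 and 2078 on the control arrays and 261.7, 82.3 and 184.8 on the EGF arrays. It fell, at -3.49 ± 0.29 (adjusted p = 9.5e-07). Igf2, a growth factor and 1 of the meningeal markers, fell, from 41709.8, 36254 and 24396 to 13211, 16561 and 16858, at -1.11 ± 0.21 (adjusted p = 0.0011).

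Among BMP signalling genes the ligands Bmp3 and Bmp4 were lower. In the list of BMP ligands, Id genes and SMAD inhibitors, 4 of the 24 measured members rose and 9 fell, with a median of -0.33, and 3 rose and 12 fell without EGF replicate 3. That was 16.7% and 37.5% of the list, beside 16.5% and 24.2% of all genes. Fst, follistatin, which binds activins, read 722.3, 521.3 and 704.5 on the control arrays and 6006, 6009.5 and 3687 on the EGF arrays. It rose by 2.94 ± 0.21 (adjusted p = 1.75e-07). Bmp4 read 8204, 8498 and 7776 on the control arrays and 2840.0, 3038 and 3502 on the EGF arrays, a log2 fold change of -1.38 ± 0.12 (adjusted p = 1.33e-06). Bmp3 was at -2.76 ± 0.18 (adjusted p = 9.07e-08) and the antagonist Chrd at -1.68 ± 0.19 (adjusted p = 1.84e-05).

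In the Wnt and Notch pathway, 3 of the 29 measured members rose and 8 fell, with a median of -0.01 that turned to 0.09 after median centring. That was 10.3% and 27.6% of the list, near 16.5% and 24.2% of all genes. Without control replicate 2, 5 fell. Hes1, a target of Notch that represses neural differentiation, read 705.4, 850.9 and 555.9 on the control arrays and 3001, 2946 and 1758 on the EGF arrays. It rose by 1.81 ± 0.22 (adjusted p = 3.27e-05), EGF replicate 3 the lowest treated array. Sfrp4, a secreted Wnt antagonist, rose by 2.01 ± 0.18 (adjusted p = 1.56e-06). The Wnt receptor Fzd1 read 8334, 9697 and 9500.5 on the control arrays and 2619, 2889 and 2882 on the EGF arrays. It fell, at -1.70 ± 0.16 (adjusted p = 2.51e-06), and Dkk3, a secreted relative of Wnt antagonists, at -1.56 ± 0.11 (adjusted p = 1.7e-07).

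No glial lineage transcription factor rose. Of these, 0 of the 17 measured members rose and 8 fell, with a median of -0.79, and at an unadjusted p under 0.05 in limma 0 were higher and 10 lower. The 8 falls were 47.1% of the list, beside 24.2% of all genes. Nfia, which starts astrocyte formation, read 5096, 7206 and 6283 on the control arrays and 3199.9, 2915 and 3239 on the EGF arrays. It fell, at -0.97 ± 0.17 (adjusted p = 0.000541), and its other probe sets had -0.39 and -0.18. Tcf4 fell, at -0.93 ± 0.13 (adjusted p = 0.000112), Meis1 at -0.79 ± 0.16 (adjusted p = 0.0018), and Sox4, by its brightest probe set, at -0.85 ± 0.10 (adjusted p = 3.06e-05), while 1 of its other probe sets had 0.77.

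Lysosomal genes were often lower, 42.9% of the list beside 24.2% of all genes. Of lysosome and autophagy genes, 4 of the 35 measured members rose and 15 fell, with a median of -0.35, and 4 rose and 17 fell without EGF replicate 3. Without EGF replicate 2 or control replicate 3, 2 rose. Ctsh, a lysosomal cysteine protease, read 6823, 7330.0 and 6566 on the control arrays and 2280.5, 2177 and 2455 on the EGF arrays. It fell, at -1.57 ± 0.11 (adjusted p = 1.59e-07). Ppt1, which removes palmitate from proteins, read 13292, 13158 and 15362 on the control arrays and 5567, 5964 and 3520.3 on the EGF arrays. It fell, at -1.50 ± 0.17 (adjusted p = 1.81e-05), and the calcium channel Mcoln1 at -1.84 ± 0.22 (adjusted p = 2.19e-05). In iron handling, 4 of the 13 measured members rose and 5 fell, with a median of 0.07 (30.8% and 38.5%, beside 16.5% and 24.2% of all genes). Without control replicate 3, 2 rose, and without control replicate 2, 3 fell. Tfrc, the transferrin receptor for uptake, read 1415, 1540.1 and 1476 on the control arrays and 3720.0, 3638 and 5118 on the EGF arrays. It rose by 1.46 ± 0.15 (adjusted p = 5.16e-06). The exporter Slc40a1 read 1009, 915.9 and 666.7 on the control arrays and 228.9, 268.6 and 372.6 on the EGF arrays. It fell, at -1.50 ± 0.28 (adjusted p = 0.000998), and Cp, the ferroxidase ceruloplasmin that works with it, at -1.44 ± 0.14 (adjusted p = 3.58e-06).

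Beyond Gap43 and Ptprn, neuronal genes rose in part. Of the neuronal genes bright enough to test, 7 of the 17 measured members rose and 2 fell, with a median of 1.01. That was 41.2% and 11.8% of the list, beside 16.5% and 24.2% of all genes. The median was 0.35 over all probe sets of each gene. The filter took the mean of all 12 arrays, so a gene dim in the other groups could pass through its EGF arrays at 12 h. The count may lean to rises for that reason, which was not tested. Many of the 42 listed were too dim. Nptx1, a secreted pentraxin of synapses, read 160.7, 112.4 and 159.1 on the control arrays and 2861, 2482 and 1910.3 on the EGF arrays. It rose by 3.85 ± 0.28 (adjusted p = 2.61e-07). Vsnl1, a calcium sensor of neurons, fell, from 1070.4, 1164 and 1079 to 271.6, 321.0 and 265.2, at -1.87 ± 0.18 (adjusted p = 3.29e-06), with -0.40 by its other probe set. The neuronal marker Rbfox3 was at most 83.6 on every 12 h array, and Syp and Thy1 did not pass the threshold. Thy1 had 1.01, and -0.90 by its other probe set. Neuron markers too dim to test were higher with EGF in places, such as Nefh at 13.3 to 42.5 in the controls and 205.3 to 427.6 with EGF, and Tubb3 at 25.4 to 186.2 and 303.0 to 500.7. Stmn2 ran from 66.2 to 88.4 in the controls and 147.5 to 190.8 with EGF, and Nefl from 69.3 to 115.3 and 153.5 to 202.5. In the other dim neuron markers, Snap25, Dcx, Elavl4, Nefm, Syt1 and Rbfox3, the groups overlapped. Snap25 ran from 31.5 to 121 in the controls and 20.2 to 173.1 with EGF, and Dcx from 20.9 to 26.9 and 14.1 to 127.6. Summed over the neuron markers, which include Gap43, the signal ran from 1498 to 1996 in the controls and from 9085 to 12065 with EGF, and the part of such cells was not tested.

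The 12 h effect was set against the effect at 4 h to find genes whose response differed between the times. Each time had its own controls, and the 12 h arrays other than EGF replicate 3 had higher 3' to 5' ratios than the 4 h arrays, so time and the set of arrays cannot be told apart in this comparison. Over probe sets 5.45% were higher at 12 h and 6.11% lower at an adjusted p under 0.05. The effects differed in 672 genes (6.55%) that were higher at 12 h and 764 (7.45%) that were lower. Without EGF replicate 3 these numbers were 1035 and 932, with 660 and 757 of the same genes. The effect was lower at 12 h in 14 of the 15 largest falls, and among the 15 largest rises it was higher at 12 h in 9 and lower in 1.

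The differences rested on the controls as well as on the treated arrays. Rapgef5 read 364.1, 358.4 and 494.9 in the 4 h controls and 289.0, 378.3 and 413.2 after 4 h of EGF, against 7639, 8046 and 9769.9 in the 12 h controls. Treated arrays were low at both times and controls were high only at 12 h, and the effects differed by -5.34 ± 0.35 (adjusted p = 2.39e-06). Gjb6 had 4 h controls of 24.1, 13.3 and 13.4 and Aldoc of 260.0, 194.5 and 26.9, far under their 12 h controls, so a fall could hardly show at 4 h. Their effects differed between times by -5.33 ± 0.98 (adjusted p = 0.00395) and -4.93 ± 0.91 (adjusted p = 0.00402). Among the 15 largest falls, 14 had a lower control mean at 4 h than at 12 h, more than 2-fold lower in 11. Whether the controls rose with time or differ with the set of arrays cannot be told apart.

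Treated arrays were higher at 12 h than at 4 h in Emb and Plcd4. Emb read 648.4, 699.8 and 829.2 in the 4 h controls and 1135, 1192 and 989.7 with EGF at 4 h, against 5299.7, 6259.5 and 6673 at 12 h, and its effects differed by 3.96 ± 0.28 (adjusted p = 4.05e-06). Plcd4, a phospholipase C, was at most 54.6 on every 4 h array. At 12 h it read 129.3, 104.9 and 38.4 on the control arrays and 1499, 1889 and 1961 on the EGF arrays. Only the treated 12 h arrays were well above background, and the effects differed by 3.84 ± 0.65 (adjusted p = 0.0021). The mean signal of Plcd4 was 1783 on those arrays, 90.9 in the 12 h controls, 39.4 with EGF at 4 h and 30.0 in the 4 h controls. It passed the filter of 215 only through the treated 12 h arrays, so its test and its choice rest on the group where it is high. Ifi27l2b, of a family induced by interferon, took another course, with 9364, 11684 and 9371 in the 4 h controls and 8012, 8199 and 8234 with EGF at 4 h. At 12 h it read 495.9, 471.7 and 255.2 on the control arrays and 4142, 4487 and 3385 on the EGF arrays. Both groups were lower than at 4 h, the controls by far more, and the effects differed by 3.57 ± 0.30 (adjusted p = 1.28e-05).

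Other effects were lost or turned by 12 h. Tgm1, a transglutaminase that crosslinks the envelope of epithelial cells, read 25.9, 38.5 and 30.3 in the 4 h controls and 2896, 3203 and 2789 after 4 h of EGF. At 12 h it read 44.5, 105.5 and 76.9 on the control arrays and 81.1, 124.5 and 125.1 on the EGF arrays. The groups overlapped near background at 12 h, at 0.46 ± 0.35 (adjusted p = 0.338), and the difference between times was -5.28 ± 0.50 (adjusted p = 3.52e-05). Aldh1a3, which makes retinoic acid, showed the same course, with 5.45 at 4 h, 0.68 ± 0.47 (adjusted p = 0.283) at 12 h and a difference of -4.77 ± 0.67 (adjusted p = 0.000594). Gdf6, a BMP family ligand, read 1709, 949.1 and 1301 in the 4 h controls and 180.2, 226.9 and 233.2 with EGF. At 12 h it read 52.7, 40.8 and 15.1 on the control arrays and 171.2, 73.8 and 1002 on the EGF arrays. EGF replicate 3 was far the highest 12 h array, and Gdf6 had 2.21 ± 0.65 (adjusted p = 0.017) at 12 h, 1.25 (adjusted p = 0.0449) without that array, and a difference between times of 4.68 ± 0.92 (adjusted p = 0.00574), or 3.71 (adjusted p = 0.00091) without it. The 12 h effect of Gdf6 had adjusted p of 0.00224 to 0.186 over the alternatives.

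The lists differed in their counts, which compare effects and not treated levels. Over all genes, 6.55% had a higher effect at 12 h and 7.45% a lower one. Of the 20 sterol genes, 12 had a higher effect at 12 h and 0 a lower one, and of the 33 ATF4 and amino acid genes 17 and 1. In ribosome biogenesis 0 of 36 were higher and 13 lower at 12 h. In G1 and DNA replication 10 of 38 were higher and 0 lower. In the actin cytoskeleton 11 of 42 were higher and 3 lower, the lower count being near the share of all genes. Of 32 cytokines, chemokines and NF-kB targets, 1 was higher and 12 were lower at 12 h.

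**Figure D5:**
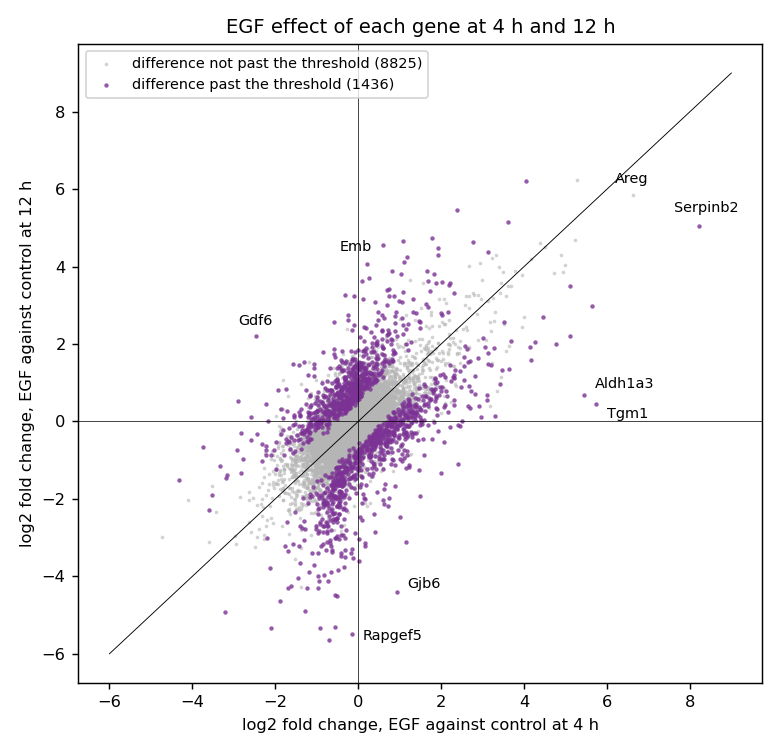
Log2 fold change of EGF against control at 12 h (vertical) against that at 4 h (horizontal) for each of the 10261 genes, with the 1436 whose effects differed between times at an adjusted p under 0.05 in purple. On the diagonal both effects are equal, and Tgm1 lies far to the right, at 5.74 at 4 h and 0.46 at 12 h.

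Some genes were picked because EGF replicate 3 lay far from the other treated arrays, so that distance is a description. Lrp5, a Wnt co-receptor, read 131.7, 101.0 and 65.0 on the control arrays and 95.3, 5.4 and 896.6 on the EGF arrays. EGF replicate 3 was far above every other array, and the log2 fold change was 0.30 ± 0.86 (adjusted p = 0.813) with it and -1.01 (adjusted p = 0.176) without it. Akirin2, a nuclear regulator of transcription, read 174.2, 295.0 and 160.3 on the control arrays and 310.6, 111.4 and 2868 on the EGF arrays, and had 1.16 ± 0.75 (adjusted p = 0.246) and -0.09 (adjusted p = 0.855). Dhrs9, a dehydrogenase of retinol, read 89.9, 233.8 and 319.7 on the control arrays and 298.8, 38.2 and 1949 on the EGF arrays, and had 0.66 ± 0.86 (adjusted p = 0.585) and -0.61 (adjusted p = 0.432). Mif, a cytokine with a short transcript, read 1261, 1309.6 and 1416 on the control arrays and 1668, 3261 and 29296 on the EGF arrays. It passed the threshold both ways, at 2.02 ± 0.69 (adjusted p = 0.0362) with all arrays and 0.80 (adjusted p = 0.007) without EGF replicate 3, and had adjusted p of 0.00157 to 0.107 over the alternatives. Entr1 was of the same kind, at 1.01 ± 0.73 (adjusted p = 0.302) and -0.21 (adjusted p = 0.663).

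Others were far lower on that array. Klhl40 read 139.3, 45.1 and 157.7 on the control arrays and 884.4, 578.0 and 34.6 on the EGF arrays. It did not pass the threshold with all arrays, at 1.32 ± 0.88 (adjusted p = 0.263), and did without EGF replicate 3, at 2.54 (adjusted p = 0.00586). Mt1, the metal-binding protein metallothionein 1, read 434.9, 431.4 and 417.7 on the control arrays and 278.3, 392.2 and 6.7 on the EGF arrays. EGF replicate 3 was alone near background, and the log2 fold change was -1.52 ± 0.91 (adjusted p = 0.214) with it and -0.35 (adjusted p = 0.739) without it. Rsbn1l had -0.63 ± 0.74 (adjusted p = 0.538) and 0.28 (adjusted p = 0.75), and Prm2 0.05 ± 0.82 (adjusted p = 0.969) and 0.92 (adjusted p = 0.351). Over the alternatives the adjusted p ran from 0.035 to 0.958 for Lrp5, 0.0205 to 0.902 for Akirin2, 0.0366 to 0.903 for Dhrs9, 0.073 to 0.788 for Entr1, 0.00107 to 0.656 for Klhl40, 0.0983 to 0.739 for Mt1, 0.28 to 0.75 for Rsbn1l and 0.292 to 0.99 for Prm2.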

How the data were processed

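RNA of rat optic nerve head astrocyte cultures was measured on 12 1-colour arrays, 3 in each of 4 groups. The deposited values are intensities on a linear scale, which the authors obtained with MAS5, per the submitters' processing notes. No MAS5 version or scaling target is stated there, and no rescaling was added. Of 31099 probe sets, 57 control and 12417 dim ones (mean signal under 215, the 40th percentile) were left out. The mean was over all 12 arrays, so a probe set could pass through a single group. Before log2, 24.4 was added to each signal, which is the 10th percentile over all probe sets and arrays. Group means were fitted over all 12 arrays with limma 3.58.1 (R 4.3.3) with eBayes and an intensity trend, 8 residual degrees of freedom, two-sided, Benjamini-Hochberg adjusted over the 18625 tested, threshold 0.05. The script was tested on simulated data. Tables and figures used Python 3.11.15 and matplotlib 3.10.9.

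Gene names come from GEO's platform annotation (20832 with 1 symbol, 436 with several, 9831 with none). Of the named, 20764 matched the RefSeq gene table. A gene is its brightest tested probe set; 2944 genes had more than 1, and 28 had calls in both directions. Lists are described by counts and medians, with no set test. The members and lists were chosen with earlier results of these data known. The rule named Egfr, the 15 largest rises and falls called with and without EGF replicate 3 and without overlap, the 5 largest differences between times each way, the 5 genes each way in which EGF replicate 3 lay farthest from the mean of replicates 1 and 2, and, in each list, up to 4 members by smallest p. Other list members given by a value were chosen after their values were seen. Promoter motifs were searched in RefSeq sequences of GRCr8.

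Replicate numbers are shared by the groups, but after the group means were taken out same-numbered 12 h arrays correlated at 0.083, -0.11 and -0.10, so no block was used. Alternatives were median centring, quantile normalization, offsets of 96.8 and 1, no filter or the 60th percentile, no trend, array weights, only 12 h arrays, a replicate block, all probe sets of a gene, and leaving out each array.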

Additional observations from a re-analysis of the deposited data

Results flagged for a closer look

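The effect of EGF at 12 h differed from that at 4 h, by the test of the difference itself, in 1015 probe sets that were higher and 1138 that were lower at 12 h. The differences below are log2 effects at 12 h minus those at 4 h. Among the largest rises they were Akr1c3 (2.17), Cyp3a9 (3.08), Akr1b8 (1.55), Ptprn (2.97), Gap43 (3.56), Vcan (1.88), Emb (3.96), Esm1 (2.55) and Ankh (1.24), with Serpinb2 (-3.18) lower at 12 h than at 4 h. Among the largest falls they were Aldoc (-4.93), Rapgef5 (-5.34), Sult1a1 (-4.42), Lrtm2 (-3.24), Cldn11 (-4.75), Dhrs3 (-1.71), Angpt2 (-3.61), Adh1c (-2.75), Dmrtc1a (-4.01), Adam22 (-3.90), Gjb6 (-5.33), Tsga10 (-3.34), Rcan2 (-3.08) and Olfml2a (-2.59). The genes with the largest differences also held Gdf6 (4.68), Plcd4 (3.84), Ifi27l2b (3.57), Tgm1 (-5.28) and Aldh1a3 (-4.77). For Egfr the difference was -1.04, from 0.54 at 4 h to -0.51 at 12 h. Each difference includes any change of the controls between the times, and 14 of the 15 largest falls had a lower control mean at 4 h than at 12 h.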

How the results depend on the processing

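The 12 h counts stayed within 1.5 times their values of 2848 and 3882 probe sets under every alternative run. Leaving out each array in turn gave 2238 to 3133 rises and 3052 to 4113 falls, and for the difference between times 647 to 1501 higher and 757 to 1488 lower probe sets. Array quality weights, which gave EGF replicate 3 a weight of 0.14, raised the difference to 2625 higher and 2487 lower. The replicate block left 4 residual degrees of freedom and gave 2929 rises, 3921 falls and 960 and 1084 differences, and it changed no named gene's call. Same-numbered 12 h arrays did not deviate together. Same-numbered 4 h arrays correlated at 0.12, 0.15 and 0.38.

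Log2 fold changes changed sign only in genes that did not pass the threshold with all arrays. Under array quality weights Lrp5 was -1.45, Dhrs9 -1.05, Akirin2 -0.36, Entr1 -0.15, Rsbn1l 0.23 and Csf1r -0.14. Without EGF replicate 3, with or without the 4 h arrays in the fit, Lrp5 was -1.01, Dhrs9 -0.61, Akirin2 -0.091, Entr1 -0.21, Rsbn1l 0.28 and Aif1 0.063. With an offset of 1 Lrp5 was -0.23 and Prm2 -0.018. Aif1 was 0.049 after median centring. With each array left out in turn, Lrp5 ran from -1.01 to 1.46, Dhrs9 ran from -0.61 to 1.88, Akirin2 ran from -0.091 to 2.12, Entr1 ran from -0.21 to 1.75, Rsbn1l ran from -1.16 to 0.28, Prm2 ran from -0.63 to 0.92 and Aif1 ran from -0.26 to 0.063. The cause was not tested. Where signals lie under 96.8, fold changes depend on the offset, and no detection calls were used.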

Other observations

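Markers of cell types that the labels do not name also moved. Mitf, the master factor of pigment cells, read 720.7, 678.4 and 889.0 on the control arrays and 2913, 2258 and 1636 on the EGF arrays. The treated arrays lay above the controls, and Mitf rose by 1.51 ± 0.21 (adjusted p = 0.000108), while Tyr and Mlana were under 96.8 on every 12 h array. Of genes shared with the oligodendrocyte lineage, Pdgfra, the receptor of its progenitors and of fibroblasts, read 4384, 3714 and 4233 on the control arrays and 1819.9, 1688 and 1602 on the EGF arrays. It fell, at -1.26 ± 0.15 (adjusted p = 3e-05), and Mbp and Cnp, which serve myelin, fell, at -1.24 ± 0.19 (adjusted p = 0.000224) and -0.97 ± 0.17 (adjusted p = 0.00054). The other probe sets of Mbp and Cnp had -0.38 and -0.34. Cspg4, the NG2 proteoglycan of progenitors and pericytes, rose from near background by 2.01 ± 0.40 (adjusted p = 0.00152). Tek, the receptor of angiopoietins, read 2769.5, 2186 and 2024 on the control arrays and 1221, 846.8 and 972.0 on the EGF arrays. It fell, at -1.18 ± 0.19 (adjusted p = 0.00029), with its ligand Angpt2, and Flt1, a VEGF receptor, rose from near background by 2.32 ± 0.39 (adjusted p = 0.000428). The other Flt1 probe sets had 1.26 and 0.71. Egr2, a factor of the early response and of Schwann cells, rose by 1.18 ± 0.22 (adjusted p = 0.000866), and the myelin gene Prx fell, at -0.74 ± 0.18 (adjusted p = 0.00663). The other Egr2 probe set had 0.45.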
